A study of Mus musculus with 12 samples.

Results

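The genes described here encode the sensors of endoplasmic reticulum (ER) stress and the basic leucine zipper (bZIP) factors and proteases that carry their signal, in microdissected growth plate cartilage of mice with mutant collagen X, with inactive XBP1, or with both. The list named 10 genes, Ern1, Eif2ak3, Atf6, Atf6b, Xbp1, Creb3, Creb3l1, Creb3l2, Mbtps1 and Mbtps2. A gene was taken through any probe that the platform annotation assigned to its symbol and that was above background (detection score, 1 minus the detection p, over 0.95) on at least 3 of 12 arrays. This left 6 genes with 1 probe each, among 7642 genes and 12023 tested probes: Ern1 (ILMN_2502860), Atf6b (ILMN_2667889), Xbp1 (ILMN_2431237), Creb3 (ILMN_1216285), Creb3l2 (ILMN_2956448) and Mbtps1 (ILMN_1245330). The annotation used here covered the probes of the authors' normalized table, of which 10069 had 1 symbol, and not all 45281 deposited probes. None of those it covered carried the symbols Eif2ak3, Atf6, Creb3l1 or Mbtps2, so these 4 genes were not analysed here, and probes for them may be among the unnamed ones.

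RNA came from the hypertrophic zone of 1 tibial growth plate of each of 12 mice aged 2 weeks, on a mixed background, with 3 mice in each of 4 genotypes, and was amplified through 2 rounds before hybridisation. Wildtype mice had neither mutation. In Xbp1CartΔEx2 mice, Cre recombinase removed exon 2 of Xbp1 from cells expressing Col2a1, the gene of the main cartilage collagen, so that cells of the zone outside that lineage could retain it. ColXN617K mice carried a Col10a1 mutation that replaces an asparagine of collagen X with lysine, which models Schmid metaphyseal chondrodysplasia, and C/X mice carried both changes, with the collagen X mutation on both alleles. Its dose in ColXN617K is not given in the sources used here. The zone is a mixed tissue, in which fewer cells of a type and less RNA per cell cannot be told apart.

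Unfolded protein in the ER is sensed by 3 kinds of membrane protein. IRE1 (encoded by Ern1) is a kinase and nuclease that splices Xbp1 mRNA into the form that encodes the active transcription factor. PERK (Eif2ak3) phosphorylates eIF2alpha, slows translation and raises ATF4 and CHOP. ATF6 and its relative ATF6B travel to the Golgi, where the site-1 protease (Mbtps1) and the site-2 protease (Mbtps2) release their bZIP domain. The same proteases cut the membrane-bound bZIP factors of the CREB3 family, of which CREB3L2 (BBF2H7) drives Sec23a and collagen II secretion in mouse chondrocytes, and the SREBP factors of sterol synthesis. Array levels measure transcripts, and hold no measure of splicing, cleavage or phosphorylation.

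Among the 6 genes Mbtps1 was called in the most contrasts. Its transcript fell in ColXN617K, by 1.33 ± 0.20 (SE, n = 3 mice a group) on the log2 scale, and did not fall in C/X. Creb3l2 rose in ColXN617K compared with wildtype, and Creb3 was higher in C/X than in Xbp1CartΔEx2. Ern1 and Xbp1 had their highest means in ColXN617K, with changes that did not pass the test, and Atf6b its highest mean in Xbp1CartΔEx2. A change is called here at a fold of at least 2 with an adjusted p of 0.01 or less (limma, Benjamini-Hochberg over the 12023 probes of a contrast), as in the methods of the study, and the verbs rose and fell are kept for called changes. By that rule 2 of 6 members were called in ColXN617K versus wildtype, where 14.5% of all probes were called, and 1 of 6 in C/X versus Xbp1CartΔEx2, against 13.7%. Creb3l2, in the first of these counts, was above background on mutant arrays alone. No member was called in C/X versus wildtype (11.7% of all probes) or in Xbp1CartΔEx2 versus wildtype (1.76%). Between the collagen mutants, ColXN617K and C/X, Mbtps1 alone was called (5.26% of all probes), and it alone was called for the interaction (1.71%), which is the effect of mutant collagen X without active XBP1 minus its effect with XBP1.

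**Figure D1:**
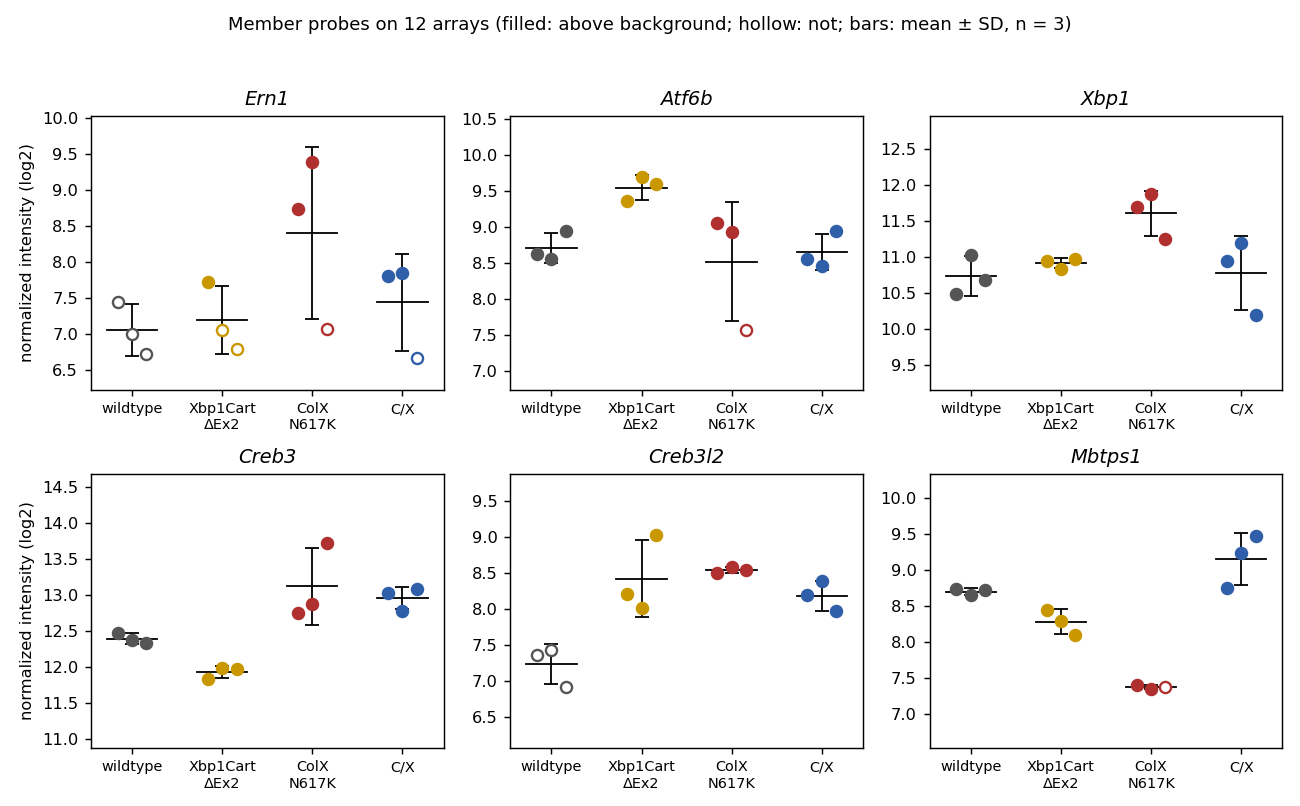
Normalized log2 intensity of the 6 member probes (y axis, the same span in each panel) on the 12 arrays, grouped by genotype (x axis), with a line and bars for the mean ± SD of 3 mice. Filled points were above background and hollow points were not. All 3 ColXN617K values of Mbtps1 lie below the other 9, and the 3 wildtype values of Creb3l2 are hollow.

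The members called in any contrast were Creb3, Creb3l2 and Mbtps1, and their promoters are shown because these genes had different patterns across the genotypes. Each run gives 250 bases before and 50 bases after the transcript start, 5′ to 3′ on the gene's strand, from RefSeq on GRCm38.p6. Capitals mark the letters CCAAT or CCACG or TGACGT, read on both strands. CCAAT and CCACG are the ends of the ER stress response element that ATF6 and XBP1 bind, and TGACGT is the first part of the sites of many CREB and ATF factors.
Creb3 (chr4:43562408-43562707, plus strand): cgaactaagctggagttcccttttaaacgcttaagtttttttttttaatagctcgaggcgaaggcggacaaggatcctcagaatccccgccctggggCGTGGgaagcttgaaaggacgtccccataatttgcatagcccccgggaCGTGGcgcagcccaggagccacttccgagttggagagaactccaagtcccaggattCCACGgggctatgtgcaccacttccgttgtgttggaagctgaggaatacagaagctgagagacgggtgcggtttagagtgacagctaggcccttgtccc
Creb3l2 (chr6:37442099-37442398, minus strand): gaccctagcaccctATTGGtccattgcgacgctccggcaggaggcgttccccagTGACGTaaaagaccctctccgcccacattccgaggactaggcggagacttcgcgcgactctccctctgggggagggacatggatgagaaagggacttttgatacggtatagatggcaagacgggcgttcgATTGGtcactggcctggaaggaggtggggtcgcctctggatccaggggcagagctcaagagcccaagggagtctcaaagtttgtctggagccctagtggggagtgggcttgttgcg
Mbtps1 (chr8:119558712-119559011, minus strand): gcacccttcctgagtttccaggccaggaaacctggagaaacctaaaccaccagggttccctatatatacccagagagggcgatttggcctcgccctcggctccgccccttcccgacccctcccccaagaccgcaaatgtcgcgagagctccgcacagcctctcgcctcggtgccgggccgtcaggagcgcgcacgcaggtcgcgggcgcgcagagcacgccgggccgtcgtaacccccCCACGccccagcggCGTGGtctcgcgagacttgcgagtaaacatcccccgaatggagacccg
Creb3 held 3 CCACG boxes, 2 of them on the reverse strand, and no CCAAT box. Creb3l2 held 1 TGACGT, 196 bases before the start, and 2 CCAAT boxes, both on the reverse strand. Mbtps1 held 2 CCACG boxes, one 12 bases before the start and the other 2 bases after it. Of 32851 mouse promoters of this length, 37.4% held CCAAT, 32.8% CCACG and 7.51% TGACGT, so single boxes were common. The complete ER stress response element (ERSE), a CCAAT box followed after 9 bases by a CCACG box, was in 0.119% of promoters, and ERSE-II, in which a reversed CCAAT box stands 1 base before CCACG, in 0.0365%. The XBP1 site TGACGTGG was in 0.676% and the full CREB site TGACGTCA in 1.79%, both of which contain TGACGT. None of these longer motifs was in the windows of the 8 members that had an entry, which were all but Atf6 and Creb3l1. Among the others, Eif2ak3 held 6 CCAAT boxes, Ern1 held 1 CCACG box, Atf6b 1 CCAAT box, and Xbp1 and Mbtps2 neither.

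Of the sensors, only Ern1 and Atf6b were measured. The Ern1 probe was dim. Its normalized log2 intensities were 7.45, 7.0 and 6.73 in wildtype, none above background, and 7.72, 7.06 and 6.80 in Xbp1CartΔEx2, the first above background. In ColXN617K they were 8.73, 9.39 and 7.07, and in C/X 7.81, 7.85 and 6.67, with the third mouse of each below background. Thus the 2 highest Ern1 values of the series came from ColXN617K mice, while the third ColXN617K mouse lay within the wildtype range. With the controls alone, the probe would not have passed the filter of 3 arrays. Its height in the collagen mutants is therefore not independent of that filter. Mean levels were 7.06 ± 0.36 (SD, n = 3) for wildtype, 7.19 ± 0.47 for Xbp1CartΔEx2, 8.40 ± 1.19 for ColXN617K and 7.44 ± 0.67 for C/X. The difference between ColXN617K and wildtype was 1.34 ± 0.52 (SE), with an adjusted p of 0.0679 by limma and a 95% interval from 0.22 to 2.47. No wildtype array was above background, so wildtype gives only a bound. The mean of all 3 ColXN617K arrays was 1.69-fold above that bound. Because this mean includes the third array, which was below background, 1.69-fold is no lower limit. Without the third ColXN617K mouse the difference was 2.04 and passed the test (limma adjusted p = 0.00207). In all it was called in 3 of 28 other settings. ColXN617K exceeded C/X by 0.96 (95% interval from -0.17 to 2.08), which did not pass.

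The third ColXN617K array and the third C/X array had fewer probes above background than the others of their genotype. The former had 17.1% of its 45281 probes above background, against 26.1% and 28.4% for the other ColXN617K arrays, and the third C/X array had 17.2% against 23.2% and 24.4%. Their part in the Ern1 spread was not tested beyond leaving them out. The wildtype arrays were close to these 2, with 17.7%, 17.7% and 17.3% of probes above background. The lowest log2 signal above background was 7.63, 7.62 and 7.68 on the wildtype arrays. It was 7.70 on ColXN617K array 3 and 7.68 on C/X array 3. Ern1 and Creb3l2 were therefore read as below background in wildtype on arrays with similarly few probes detected. Over all arrays the share above background ranged from 17.1% to 28.4% and the median intensity from 221.3 to 584, and no arrays held identical values.

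Atf6b, a relative of ATF6 that is cut in the same way and is mostly described as a weak activator, behaved differently from Ern1. Its log2 intensities were 8.63, 8.56 and 8.95 in wildtype, and 9.36, 9.69 and 9.60 in Xbp1CartΔEx2. They were 9.05, 8.93 and 7.56 in ColXN617K, the last below background, and 8.55, 8.46 and 8.94 in C/X. All 3 Xbp1CartΔEx2 values lay above all others of the series. The means in the same order were 8.71 ± 0.21 (SD, n = 3), 9.55 ± 0.17, 8.52 ± 0.83 and 8.65 ± 0.25. Xbp1CartΔEx2 exceeded wildtype by 0.84 ± 0.34 (SE; 95% interval from 0.11 to 1.57; adjusted p = 0.159, limma). C/X was below Xbp1CartΔEx2 by 0.90 (95% interval of the log2 fold change from -1.63 to -0.17; adjusted p = 0.0685, limma). Neither difference passed the test. ColXN617K, C/X and wildtype did not differ beyond their spread, with log2 differences of -0.19 and -0.06 from wildtype. Without the third ColXN617K and C/X arrays, Atf6b in C/X was 1.04 below Xbp1CartΔEx2 on the log2 scale and this passed (log2 fold change -1.04, limma adjusted p = 0.00115). In all this difference was called in 3 of 29 other settings.

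Xbp1, the transcript that IRE1 splices, was measured on all 12 arrays. The position of its probe in the transcript is not given in the sources used here, so its level does not check the removal of exon 2. Its log2 intensities were 10.49, 11.03 and 10.67 in wildtype and 10.94, 10.82 and 10.96 in Xbp1CartΔEx2. They were 11.68, 11.87 and 11.25 in ColXN617K and 10.94, 11.18 and 10.19 in C/X. Every ColXN617K value was therefore above every value of the other genotypes, by the narrow margin of 11.25 over 11.18 against C/X. The mean was 11.60 ± 0.32 (SD, n = 3) in ColXN617K against 10.73 ± 0.28 in wildtype, a difference of 0.87 ± 0.27 (SE) or 1.83-fold, with an adjusted p of 0.0286 by limma. This missed the fold and the p of the rule, while inside a threshold of 0.05. In C/X the mean was 10.77 ± 0.52, and its differences were 0.04 from wildtype (95% interval from -0.54 to 0.63) and -0.14 from Xbp1CartΔEx2 (-0.72 to 0.45). ColXN617K exceeded C/X by 0.83 ± 0.27 (adjusted p = 0.0578, limma). The interaction was -1.01 ± 0.38 (adjusted p = 0.129, limma), so a different response of the Xbp1 transcript in the presence and absence of active XBP1 did not pass the test. Without the third ColXN617K and C/X arrays the rise of Xbp1 in ColXN617K over wildtype was 1.04 and was called (adjusted p = 0.00116, limma). It was called in 2 of 29 other settings, this one and an adjusted p of 0.05 with no fold minimum. Leaving out the third ColXN617K array alone gave no call of Xbp1.

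Creb3 and Creb3l2 were the measured members of the CREB3 family, whose bZIP factors are held in the ER membrane until they are cut in the Golgi. Creb3 was the brightest of the 6 probes, and probe brightness does not rank transcript levels between genes. Its log2 intensities were 12.48, 12.37 and 12.33 in wildtype and 11.83, 11.99 and 11.97 in Xbp1CartΔEx2. In ColXN617K they were 12.75, 12.88 and 13.73, and in C/X 13.02, 12.78 and 13.08. The 6 mice with mutant collagen X were all above the 6 without it, and the Xbp1CartΔEx2 mice were all below wildtype. Creb3 was higher in C/X than in Xbp1CartΔEx2 by 1.03 ± 0.24 (SE), or 2.05-fold, and this was called (adjusted p = 0.00741, limma). The call lay at the edge of the rule: it was lost in 16 of 29 other settings, although the difference kept its direction in all 29, from 0.93 to 1.25. Leaving out any 1 mouse of wildtype, Xbp1CartΔEx2 or C/X ended it (limma adjusted p from 0.0117 to 0.0314). ColXN617K exceeded wildtype by 0.73 ± 0.24 (adjusted p = 0.0389, limma), C/X exceeded wildtype by 0.57 (adjusted p = 0.106, limma), and Xbp1CartΔEx2 was 0.46 below wildtype (log2 fold change -0.46, adjusted p = 0.277, limma). These did not pass. ColXN617K and C/X, at 13.12 ± 0.53 and 12.96 ± 0.16 (SD, n = 3), differed by less than their spread, and the interaction was 0.31 ± 0.34.

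Creb3l2, the family member with a known part in cartilage secretion, was below background in all 3 wildtype mice and above it in all 9 mutants. The probe thus passed the filter of 3 arrays through the mutants alone, and each mutant genotype met it by itself. Its differences from wildtype are therefore not independent of that filter. The wildtype log2 intensities were 7.36, 7.43 and 6.93. Those of Xbp1CartΔEx2 were 8.22, 8.03 and 9.03, those of ColXN617K 8.51, 8.59 and 8.54, and those of C/X 8.19, 8.40 and 7.97. No normalized mutant value overlapped wildtype. The deposited intensities of ColXN617K (578.7, 811.5 and 519.9) did overlap those of wildtype (536.3, 488 and 434), on arrays of lower median intensity in ColXN617K. After normalization Creb3l2 rose in ColXN617K by 1.31 ± 0.26 (SE) over wildtype (adjusted p = 0.00273, limma). On this background-corrected scale that is at least 1.87-fold, because wildtype gives only a bound. Without background correction the log2 difference was 0.58. Xbp1CartΔEx2 was at least 1.72-fold above wildtype (1.18 ± 0.26, adjusted p = 0.0180, limma) and C/X at least 1.46-fold (0.95 ± 0.26, adjusted p = 0.0189, limma), and these did not pass. The lower of the 2 collagen effects was the one without XBP1: C/X differed from Xbp1CartΔEx2 by -0.24 (95% interval from -0.80 to 0.33). The interaction was -1.54 ± 0.37 (adjusted p = 0.0271, limma), outside the rule of 0.01 and inside a threshold of 0.05, which 7.45% of all probes met. With the wildtype level at its bound, this interaction is -1.14. The 3 mutant means were 8.42 ± 0.53, 8.55 ± 0.04 and 8.19 ± 0.21 (SD, n = 3). ColXN617K and C/X did not overlap, but their difference of 0.36 did not pass, and ColXN617K was not compared with Xbp1CartΔEx2. The call in ColXN617K was lost in 7 of 29 other settings, and the difference kept its direction in all 29. It was lost without background correction (0.58), with cyclic loess (1.16), with median scaling (1.94), with a block by the number in the description (1.41), without wildtype mouse 3 (1.17, limma adjusted p = 0.0147), without ColXN617K mouse 1 (1.29, adjusted p = 0.0105) and without ColXN617K mouse 2 (1.21, adjusted p = 0.0117).

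**Figure D2:**
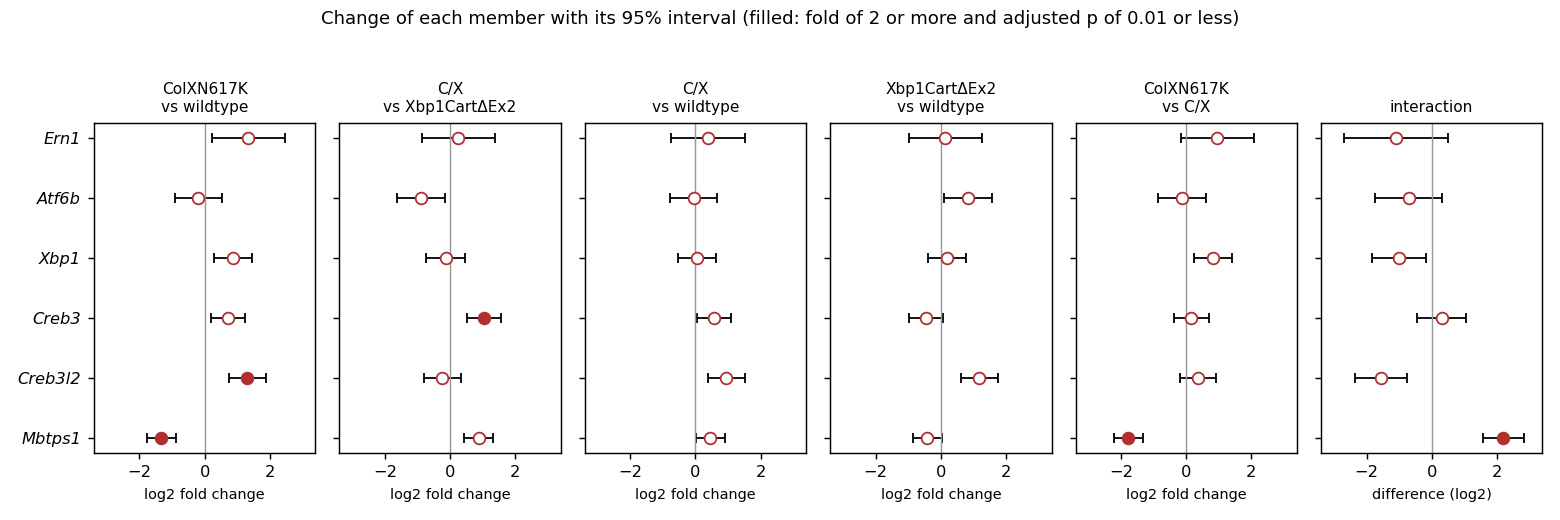
Log2 fold change of each member (rows) in 5 comparisons of genotypes and, in the last panel, the interaction as a difference of log2 fold changes (x axes), with the 95% interval from limma. Filled points passed a fold of 2 with an adjusted p of 0.01. Mbtps1 is filled at -1.33, -1.78 and 2.20, Creb3l2 at 1.31 and Creb3 at 1.03.

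Mbtps1 encodes the site-1 protease, the first of the Golgi enzymes that cut ATF6, the CREB3 family and SREBP. Its log2 intensities were 8.73, 8.65 and 8.71 in wildtype and 8.44, 8.29 and 8.09 in Xbp1CartΔEx2. They were 7.39, 7.34 and 7.37 in ColXN617K and 8.75, 9.23 and 9.47 in C/X. The order of the means was C/X (9.15 ± 0.37, SD, n = 3), wildtype (8.70 ± 0.04), Xbp1CartΔEx2 (8.27 ± 0.17) and ColXN617K (7.37 ± 0.03), and no group overlapped another. C/X and wildtype (0.45, adjusted p = 0.127, limma), and wildtype and Xbp1CartΔEx2 (log2 fold change -0.42 for the mutant, adjusted p = 0.242, limma), did not pass the test as neighbours in that order.

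Mbtps1 fell in ColXN617K to 0.398 of the wildtype level (log2 fold change -1.33 ± 0.20 SE, adjusted p = 0.000488, limma). It was also lower in ColXN617K than in C/X, by a log2 fold change of -1.78 ± 0.20 (adjusted p = 0.000302, limma), which was larger in size than that of 98.0% of all probes. In the absence of active XBP1 the mutant collagen went with a higher level: C/X exceeded Xbp1CartΔEx2 by 0.88 ± 0.20, or 1.83-fold, with an adjusted p of 0.00731 by limma, short of the fold of 2. The interaction of 2.20 ± 0.29 was called (adjusted p = 0.00174, limma). The third ColXN617K array was not above background for this probe.

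The fall of Mbtps1 was visible before normalization. The deposited intensities were 683.3, 622.9 and 619.6 in wildtype and 329.4, 383.5 and 427 in ColXN617K, against 756.6, 731.8 and 688.6 in Xbp1CartΔEx2 and 1018.3, 1202.9 and 1225.6 in C/X. The arrays differed in overall brightness in the same direction, with median intensities of 221.3, 241.8 and 334 in ColXN617K and 421, 375.8 and 366.9 in wildtype. When arrays were scaled only to a common median, the median of all probes rose by 0.77 in ColXN617K versus wildtype, the log2 fold change of Mbtps1 became -0.37 and was not called (limma adjusted p = 0.405), and relative to that median it was -1.15. Under the same scaling Mbtps1 in ColXN617K versus C/X was -1.51 (adjusted p = 0.0620, limma) and the interaction 1.29 (adjusted p = 0.195, limma). The 3 calls held in 27 of 29, 26 of 29 and 27 of 28 other settings, and all kept their direction in every one. Without background correction the values of Mbtps1 were -0.60 in ColXN617K versus wildtype and -0.86 versus C/X, both short of a fold of 2, and the interaction was 1.07 and still called. The 3 differences of Mbtps1 had the same sign throughout, with a size that depended on background correction and on how arrays were scaled.

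**Figure D3:**
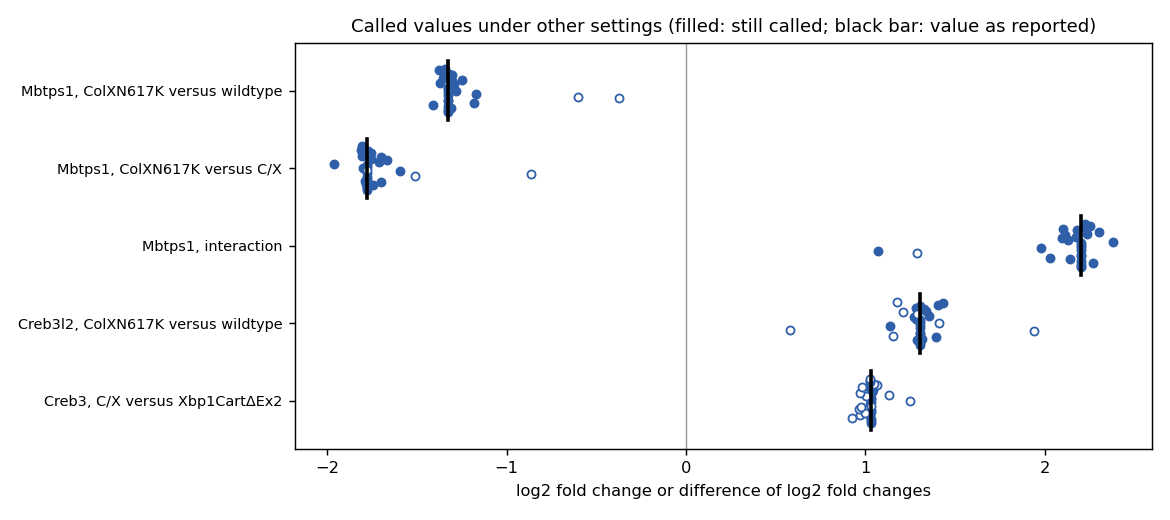
The 5 called values (rows) under each other setting tried, as log2 fold change or difference of log2 fold changes (x axis). Filled points were called, hollow points were not, and the black bar is the value reported. Mbtps1 stays on its side of 0 throughout, and most hollow points belong to Creb3, 16 of 29.

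Looked at by contrast, members of opposite direction were mixed. In ColXN617K versus wildtype the median log2 fold change of the 6 members was 0.80, beside 0.00 over all probes. Wildtype was below background for Ern1 and Creb3l2. With wildtype at its bound they stood at 0.76 and 0.90, the median was 0.74 and the values ran from -1.33 (Mbtps1) to 0.90. Among the other members the highest was Xbp1, at 0.87. Ern1 passed the filter only through the collagen mutants, and Creb3l2 only through the mutant genotypes. The medians and counts against wildtype are therefore not independent of the filter. The groups did not overlap for 4 of 6 members, where 40.8% of all probes did not overlap. In C/X versus Xbp1CartΔEx2 the median was 0.06, beside 0.05 over all probes, and 3 of 6 did not overlap (44.3% of all probes). In C/X versus wildtype these figures were 0.42 (0.25 with Creb3l2 at its bound and Ern1, which has no fold there, at 0) and 3 of 6 (43.6%), and in Xbp1CartΔEx2 versus wildtype 0.16 (0.09 likewise) and 4 of 6 (36.7%). In ColXN617K versus C/X they were 0.26 and 3 of 6 (30.1%). At an adjusted p of 0.05 with no fold minimum, Xbp1, Creb3, Creb3l2 and Mbtps1 passed in ColXN617K versus wildtype (4 of 6, 30.1% of all probes), and Creb3 and Mbtps1 in C/X versus Xbp1CartΔEx2 (2 of 6, 26.3%). Creb3l2 was the 1 member to pass in C/X versus wildtype (25.7% of all probes) and in Xbp1CartΔEx2 versus wildtype (7.14%), Mbtps1 the 1 member between ColXN617K and C/X (15%), and both passed for the interaction (7.45%). With the fold of 2 kept and the adjusted p set to 0.05, Creb3l2 passed in Xbp1CartΔEx2 versus wildtype (1 of 6, 5.04% of all probes) and Creb3l2 and Mbtps1 for the interaction (2 of 6, 7.31%). The comparisons share samples and are not independent of each other.

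Over the 12 arrays, which share their genotypes, Ern1 and Xbp1 followed each other (Pearson r = 0.80, Spearman rho = 0.66), while Mbtps1 ran against Xbp1 (r = -0.78, rho = -0.69) and Atf6b against Creb3 (r = -0.83, rho = -0.73). These are descriptions of 4 group means with their spread. The genes most like Mbtps1 were Cdk9 (r = 0.960), a transcription elongation kinase, Ykt6 (0.959), a SNARE of Golgi vesicle fusion, and Msn (0.956), the cytoskeletal linker moesin. Those most like Creb3 were Scnm1 (0.978), Ddx24 (0.973) and Mybbp1a (0.973), which serve splicing and the nucleolus. Those most like Creb3l2 were Copa (0.884), a coat protein of Golgi to ER vesicles, Col26a1 (0.876) and Zfp292 (0.868).

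The genes that these factors act on were grouped by branch. ATF6 targets are mainly ER chaperones and folding enzymes. Of 12 measured, 7 rose and none fell in ColXN617K versus wildtype, where 7.31% of all probes rose, 8 rose in C/X versus Xbp1CartΔEx2 (6.06%) and 4 in C/X versus wildtype (6.52%). Pdia4, a disulfide isomerase, rose by 3.01 ± 0.36 (SE) and 2.74 ± 0.36 in the first 2 of these, and Creld2, a secreted ER stress protein, by 2.45 ± 0.27 and 2.70 ± 0.27. Hsp90b1, the chaperone GRP94, rose by 1.93 ± 0.24 and 1.51 ± 0.24. Hspa5, the chaperone BiP, was below background in both controls and rose at least 3.90-fold in ColXN617K. In C/X it rose to 2.76-fold over the control's bound, with 2 of 3 arrays above background, so this is no lower limit. The list's median was 1.49 and 1.42, or 1.20 and 1.40 with 5 genes below background in a control at their bounds, and the 12 genes included no call between ColXN617K and C/X. Among the genes that rose, Hspa5, Pdia6 and Derl3 were above background on no array of either control. They could be tested only through the collagen mutants, so the counts are not independent of the rise. By any tested probe 7, 8 and 5 genes were called in the 3 comparisons.

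Targets of PERK, ATF4 or CHOP include genes of amino acid supply and of feedback on translation. Of 19 measured, 13 rose in ColXN617K versus wildtype, 12 in C/X versus Xbp1CartΔEx2 and 15 in C/X versus wildtype, with none falling, against the same 7.31%, 6.06% and 6.52% of all probes. Fgf21, Slc7a11 and Sesn2 were above background on too few control arrays to be tested without the collagen mutants, so these counts are not independent of the rise. Fgf21, a stress hormone, rose at least 62.9-fold in ColXN617K, and Aldh1l2, a mitochondrial folate enzyme, at least 11.9-fold. Psat1 and Asns, enzymes of serine and asparagine synthesis, rose by 2.76 ± 0.35 and 2.49 ± 0.32. Counted by any tested probe of a gene, and not the brightest alone, 13, 15 and 15 genes of the list were called in the 3 comparisons and 2 in the interaction. Aldh1l2 also rose in Xbp1CartΔEx2, at least 2.80-fold over wildtype. By the brightest probe it was the 1 gene of the list called in the interaction (-3.36 ± 0.62, adjusted p = 0.00935, limma). Its wildtype probe was below background, and with wildtype at its bound the interaction is -2.31.

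XBP1 targets serve translocation into the ER and folding there. Of 15 measured, 3 rose in ColXN617K versus wildtype (Serp1, Dnajb9 and Pdia6), 2 in C/X versus Xbp1CartΔEx2 (Serp1 and Pdia6) and 1 in C/X versus wildtype (Serp1). Over all probes 7.31%, 6.06% and 6.52% rose, so the last count was near the background. Pdia6 was above background on no control array, so it could be tested only through the collagen mutants. Serp1, a translocon partner, rose by 1.86 ± 0.21 (SE) with XBP1 and 1.56 ± 0.21 without it. Dnajb9, the BiP cochaperone ERdj4, rose by 1.79 ± 0.28 with XBP1, changed by 0.42 ± 0.28 without it, and was higher in ColXN617K than in C/X by 1.91 ± 0.28 (adjusted p = 0.00131, limma). It was the 1 gene of this list called between the collagen mutants, and its interaction of -1.37 ± 0.40 did not pass (adjusted p = 0.0567, limma).

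Genes of the vesicle coats and Golgi were listed as CREB3-family targets. Of 12 measured, 4 rose in ColXN617K versus wildtype, none in C/X versus Xbp1CartΔEx2 and 2 in C/X versus wildtype, where 7.31%, 6.06% and 6.52% of all probes rose. These counts use the brightest probe of a gene, and by any tested probe 5, 1 and 3 genes were called. Sec31a, of the COPII coat, rose by 1.92 ± 0.26 (SE) in ColXN617K, Tfg, which organises ER exit sites, by 1.72 ± 0.28, Sec16a, their scaffold, by 1.34 ± 0.19, and Copa, of the COPI coat, by 1.21 ± 0.22. In C/X versus Xbp1CartΔEx2 the same 4 changed by 0.73, 0.03, 0.47 and -0.49. The difference was called for Copa alone (interaction -1.69 ± 0.32, adjusted p = 0.00966, limma), and the list's median interaction was -0.71 (-0.61 with 1 gene at its bound), beside 0.01 over all probes.

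**Figure D4:**
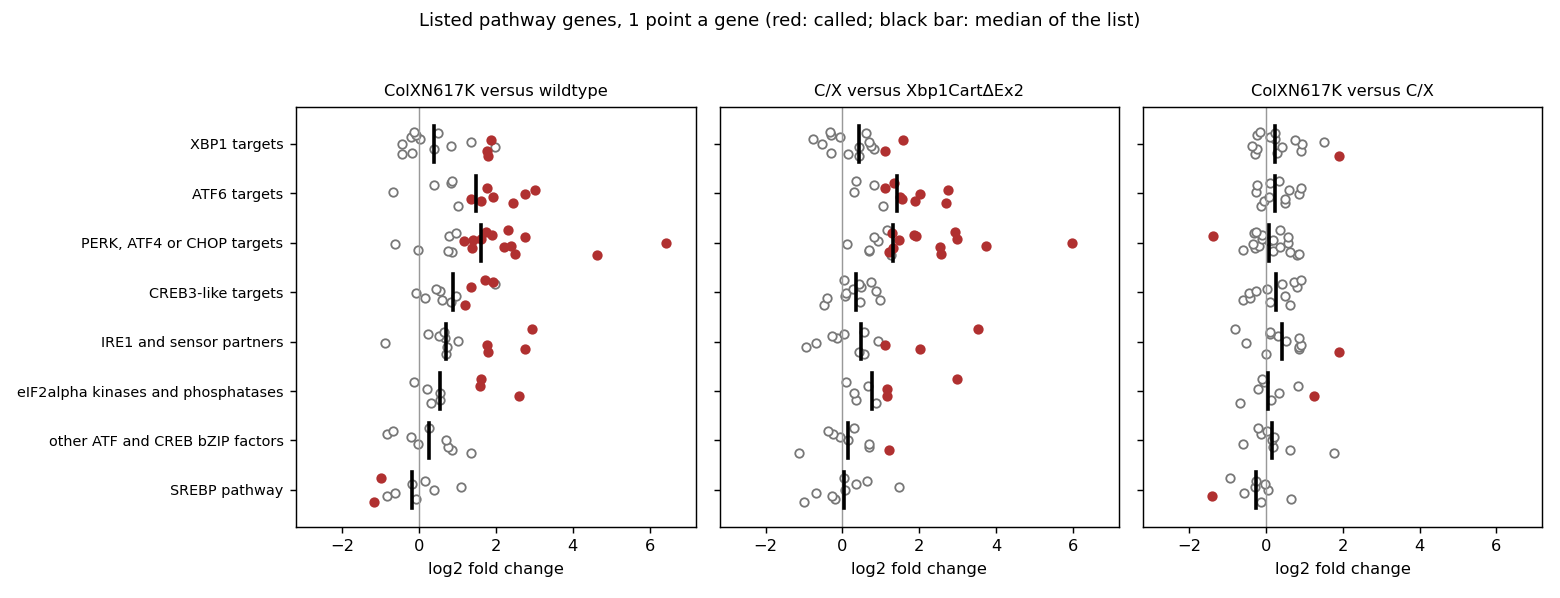
Log2 fold change (x axis) of the measured genes of 8 lists (rows), 1 point a gene, in 3 comparisons, with called genes in red and a black bar at the median of each list's fitted values. The lists of ATF6 targets (medians 1.49 and 1.42) and of PERK, ATF4 or CHOP targets (1.61 and 1.32) sit to the right in the first 2 panels and near 0 in the third.

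The sensors are held or tuned by partner proteins. Of 12 measured partners of IRE1 and the other sensors, 4 rose in ColXN617K and 3 in C/X versus its control, against 7.31% and 6.06% of all probes. Wfs1, an ER membrane protein that restrains ER stress signalling, rose at least 4.71-fold and at least 10.6-fold, and the others, Hspa5, Dnajb9 and Pdia6, also stand in the lists above. Wfs1, Hspa5 and Pdia6 were above background on no array of either control, so they could be tested only through the collagen mutants. The counts are therefore no support for a rise of the partners as a set. By any tested probe, 4 partners were called in each comparison. Of 8 genes around eIF2alpha, 3 rose in each comparison, beside the same shares of all probes. Ppp1r15a (GADD34), which returns eIF2alpha to its unphosphorylated state, rose by 1.61 ± 0.24 (SE) and 2.97 ± 0.24, and Eif2b3, a subunit of the exchange factor eIF2B, by 2.59 ± 0.26 and 1.16 ± 0.26. Nck1, an adaptor that binds the eIF2alpha phosphatase, rose in ColXN617K, to 1.45-fold over the wildtype bound as a mean of 3 arrays. Only 2 of them were above background, so this is no lower limit. Nck1 was above background on no control array, so it too could be tested only through the collagen mutants. By any tested probe, 4 genes around eIF2alpha were called in each comparison. Of 9 other ATF and CREB factors, none was called in ColXN617K versus wildtype and 1, Atf3, in C/X versus Xbp1CartΔEx2 (1.21 ± 0.20).

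The other substrates of the site-1 protease were set beside Mbtps1. Of 9 measured genes of the SREBP pathway and its protease substrates, none rose and 2 fell in ColXN617K versus wildtype, where 7.16% of all probes fell: Srebf2, which encodes the SREBP-2 factor, by a log2 fold change of -1.0 ± 0.25 (SE), and Gnptab, whose protein is cut by the site-1 protease, by -1.18 ± 0.18. The Srebf2 call lay at the edge of the rule in both its fold and its adjusted p (0.00984, limma). Insig1, which retains SREBP in the ER, was lower in ColXN617K than in C/X, where C/X was at least 2.07-fold higher. Srebf2 changed by 0.04 in C/X versus Xbp1CartΔEx2, and its interaction of 1.04 ± 0.35 did not pass (adjusted p = 0.0935, limma). Gnptab changed by -1.0 there, just short of a fold of 2 (adjusted p = 0.00156, limma).

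Cartilage markers were measured in the dissected tissue, and marker transcripts of other cell types varied in level with genotype. Of 8 hypertrophic chondrocyte markers 7 were measured, all above background on all arrays, and their summed level (normalized intensity) was 50904 to 62344 for wildtype, 56404 to 71735 for Xbp1CartΔEx2, 14869 to 18662 for ColXN617K and 30687 to 33288 for C/X. Of 9 chondrocyte markers 8 were measured, with 82127 to 85899, 78762 to 90148, 63141 to 83913 and 53427 to 67295 in the same order. Of 10 endothelial markers 6 were measured, with 4213 to 8904, 9941 to 18300.3, 690.1 to 907.7 and 774.4 to 2342. Of 6 erythroid markers 4 were measured, with 16057 to 26595, 4962 to 6151, 2112 to 7708 and 1426 to 2820. Thus the endothelial sum was low in both collagen mutants, and the erythroid sum was below wildtype in all 3 mutant genotypes. The hypertrophic chondrocyte sum was lowest in ColXN617K, and in C/X it was also below wildtype. Of 9 osteoblast markers 6 were measured (5786 to 8851, 10969 to 25043, 2819 to 4320 and 1943 to 3868), and of 9 osteoclast and macrophage markers 4 (23999 to 33834, 31112 to 36769, 6044 to 10200.2 and 8062 to 22090.4). Of 6 muscle markers 4 were measured, with 463.2 to 499.6, 1010 to 1649, 897.7 to 7411 and 392.7 to 3917 in the same order of genotypes. None was above background in wildtype, 1 was on each Xbp1CartΔEx2 array, 3 to 4 in ColXN617K and 0 to 4 in C/X. The muscle sums thus varied widely between mice of the same collagen mutant. The part of these other cells in the member values was not tested.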

How the data were processed

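The authors hybridised amplified RNA to Illumina MouseWG-6 v2 arrays and deposited 3 kinds of values: non-normalized intensity for 45281 probes, a detection column headed as a p-value that holds 1 minus the p-value, and normalized log2 values for 11338 probes. Their processing, per the methods, was background correction and quantile normalization with limma, with low and badly annotated probes removed.

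Here intensities were corrected and normalized by neqc (offset 16) in limma 3.58.1 (R 4.3.3), probes above a detection score of 0.95 on 3 arrays were kept, and 1 mean per genotype was fitted with empirical Bayes moderation. Member values differed from the deposited log2 values by at most 0.0167. Where a whole group was below background, a bound was set from the lowest signal above background on each of its arrays. The other group kept its mean of 3 arrays. A fold over the bound is a lower limit only where all 3 were above background. Scripts were tested on simulated data.

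Members and gene lists were chosen with earlier results of these data known. Of several tested probes of a list gene the brightest was used, and examples are up to 4 called genes with the largest change in ColXN617K versus wildtype. Genes named for other contrasts were chosen after their values were seen. Nothing says whether mice shared a litter. Arrays with the same replicate number in the titles had correlated deviations most in ColXN617K and C/X (0.37, 0.60 and 0.66). The correlations were 0.08, 0.33 and 0.30 for C/X and wildtype, and 0.00, 0.22 and 0.15 for ColXN617K and wildtype. Of all 15 pairs 7 were over 0.1, and the lowest was -0.33.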

Additional observations from a re-analysis of the deposited data

Results flagged for a closer look

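The effect of mutant collagen X differed with and without active XBP1 for 10 of the 92 member and pathway genes tested. The rule here was an adjusted p of 0.05 or less in the test of the difference itself (limma). Of all probes 7.45% met it, and the count was not tested against that share. Mbtps1 had the difference of 2.20 (adjusted p = 0.00174), from a log2 fold change of -1.33 with XBP1 to 0.88 without it. Creb3l2 had a fitted difference of -1.54 (adjusted p = 0.0271) and Aldh1l2 one of -3.36 (adjusted p = 0.00935). The wildtype probes of both were below background, so that their effects with XBP1 are at least 0.90 and 3.58 on the log2 scale, beside -0.24 and 1.26 without it. Copa had -1.69 (adjusted p = 0.00966), from 1.21 to -0.49. Creb3l2 and the genes that follow were outside the 0.01 of the rule. Tfg had -1.69 (adjusted p = 0.0254), Psat1 -1.93 (0.0347), Eif2b3 -1.43 (0.0378) and the bZIP factor gene Atf2 -2.48 (0.0335), while Ppp1r15a had 1.36 (0.0324) and Ddit3, the gene of CHOP, 1.36 (0.0453). Genotypes of 3 mice were given no test for arrays that stand apart, and values without single arrays are given with the processing settings.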

How the results depend on the processing

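With 3 arrays a group, and with Ern1 and Creb3l2 below background in wildtype, counts of calls moved with the processing while directions of called values did not turn. For ColXN617K versus wildtype (2 members called), the count was 0 without background correction, 1 with cyclic loess (Mbtps1), 1 with median scaling (Creb3), 4 at an adjusted p of 0.05 with no fold minimum, and 4 without the third ColXN617K and C/X arrays (Ern1, Xbp1, Creb3l2 and Mbtps1). For C/X versus Xbp1CartΔEx2 (1 member), it was 0 without background correction, with cyclic loess, with median scaling or with no filter, and 2 at an adjusted p of 0.01 or 0.05 with no fold minimum. For ColXN617K versus C/X (1 member), it was 0 without background correction, with median scaling or when only these genotypes were fitted. For the interaction (1 member), it was 0 with median scaling, 3 with array weights (Atf6b, Creb3l2 and Mbtps1), 2 at an adjusted p of 0.05 with or without a fold of 2, and 2 without the third arrays (Atf6b and Mbtps1). For C/X versus wildtype and for Xbp1CartΔEx2 versus wildtype (0 members each), Creb3l2 was the 1 member called with array weights, at an adjusted p of 0.05 with no fold minimum, and without the third arrays, and in Xbp1CartΔEx2 also at a fold of 2 with an adjusted p of 0.05. Without background correction the folds were smaller; the causes of the other moves were not tested.

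Leaving out single mice gave 1 to 3 members in ColXN617K versus wildtype, 0 to 1 in C/X versus Xbp1CartΔEx2, 1 to 1 for the interaction and 1 to 1 between ColXN617K and C/X, and 0 to 0 in C/X versus wildtype and Xbp1CartΔEx2 versus wildtype. A replicate block by title number changed no count of member calls: 2 remained in ColXN617K versus wildtype and 1 in ColXN617K versus C/X. A block by the number in the description gave 1 in ColXN617K versus wildtype (Mbtps1). In C/X versus Xbp1CartΔEx2 the 1 member called was Atf6b in place of Creb3 under that block, with array weights and without the third arrays. It was Mbtps1 in place of Creb3 when the first C/X mouse was left out. Over single member values, 29 lost a call, 25 gained one, 39 uncalled values moved by more than the replicate spread, and the other 939 were either called in both fits, whatever their size, or uncalled in both and within that spread. A block by BeadChip was not run, since the headers name no chip, and a mean over probes equals the values given, since each member has 1 probe.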
